A study of Oryza sativa with 27 samples.

Results

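The 6 rice genes described here carry chitinase names and were chosen by name and NCBI gene number: OsChia1d (LOC4338720), Cht1 (LOC4338719), Cht11 (LOC4331519), OsChia4a (LOC4336265), Chib3H-a (LOC4351194) and Chib3H-h (LOC4351187). They are 6 of 17905 genes that the array's annotation reaches, and each is measured by 1 probe set. Rice (Oryza sativa) ovaries were cut into a bottom 1/4, which holds the embryo after fertilisation, and a top 3/4, which is mainly endosperm. Both were sampled unpollinated and at 1, 2, 3 and 4 days after pollination (DAP), from plants that stood in a paddy field at Mishima, Japan. No mutant, transgene or chemical treatment is named for any group. There are 27 arrays in 10 groups, of 3 arrays each where not otherwise stated; the top groups of 1, 2 and 3 DAP have 2. The labels call them biological replicates without saying which plants or panicles they came from, or whether a top and a bottom sample came from the same ovaries, so the p-values measure the spread between these samples.

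Chitinases cleave chitin, the polymer of fungal cell walls and insect cuticles, which plants themselves do not make. Plant chitinases are grouped into classes by sequence. Classes I, II and IV share a catalytic fold, while class III enzymes belong to another glycoside hydrolase family, some of whose members have lost the activity and inhibit other enzymes instead. Many are pathogenesis-related proteins induced by infection, and some are made in flowers and seeds of healthy plants.

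A value below is a probe set's intensity divided by the 75th percentile of its own array, so that 1 means as bright as that percentile. A low value is not a statement of absence, because no detection calls are used, and in bulk tissue fewer cells of a type and less RNA per cell cannot be told apart. Changes are differences of log2(value + 0.13), which understate the change of dim genes, with the standard error (SE) of a limma fit to all arrays. A change is called at an adjusted p under 0.05, with Benjamini-Hochberg adjustment over 29301 probe sets. All 6 members passed the filter on dim probe sets (a mean over all arrays above 0.264). Cht1 and OsChia4a did so through 1 group each, since without its highest group the mean is 0.204 for Cht1 and 0.247 for OsChia4a.

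Pairs of arrays within a group had correlations of 0.863 to 0.978 over probe sets. Bottom replicate 3 deviated from its group mean by 0.516 log2 units (root mean square) at 3 DAP and 0.484 at 4 DAP, the 2 largest deviations, while all other arrays lay between 0.181 and 0.380. At 2 DAP it deviated by 0.367, within the range of the others. One alternative leaves out bottom replicate 3 of 2, 3 and 4 DAP together. Marker genes went with the labels in the endosperm: the summed level of Wx, SSII-3 and NF-YB1 was 0.527 to 1.09 in the unpollinated top part, and by 4 DAP 37.7 to 84.5 there and 16.2 to 23.2 in the bottom part. The embryo markers OSH1 and Roc1 differed: in the bottom part OSH1 had a mean of 20.9 before pollination and 3.76 at 4 DAP, and Roc1 had 2.95 and 4.73. Before pollination the top part had a Roc1 mean of 5.17, so Roc1 was not particular to the bottom part. OSH1 separated the parts, with top means of 0.345 before pollination and 0.0551 at 4 DAP. It was high in the bottom part before pollination and fell afterwards, so its course did not follow the labelled embryo. The summed level of the anther and pollen markers OsC6, RTS and OsRAFTIN1 lay between 0.262 and 0.81 on all arrays.

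The 6 genes followed 4 courses. OsChia1d and its neighbour Cht1 were bright in the unpollinated bottom part and lower after pollination, Cht11 fell in the top part, OsChia4a rose for a short time in the bottom part, and the paired genes Chib3H-a and Chib3H-h varied more between replicate arrays than between stages. In the bottom part 3 of 6 members were called at each day: 1 higher and 2 lower at 1, 2 and 4 DAP and 3 lower at 3 DAP. Over all probe sets 13.4% were called at 1 DAP, 14.3% at 2 DAP, 16.0% at 3 DAP and 20.4% at 4 DAP. In the top part 1 member was lower at 1 DAP and 2 at each later day, where 17.3%, 18.5%, 25.2% and 34.6% of all probe sets were called at 1, 2, 3 and 4 DAP. The members were chosen with earlier results of these data known, and Cht1 and OsChia4a passed the filter only through their highest group. The member counts therefore cannot be read as an excess over these shares. The median log2 change of the 6 members ranged from -0.81 to -0.06 over these 8 comparisons, against medians of all probe sets between -0.06 and 0.01.

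**Figure D1:**
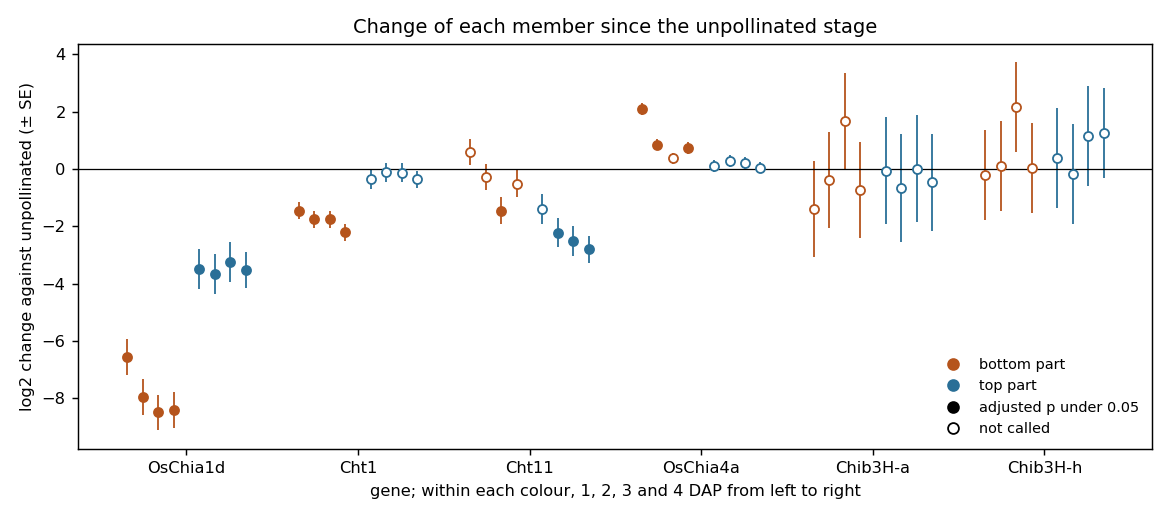
Log2 change of each of the 6 genes since the unpollinated stage (y axis, ± SE of the limma fit), with bottom and top part in different colours and 1 to 4 DAP from left to right within each colour; filled points are called. OsChia1d falls furthest, by 8.49 in the bottom part at 3 DAP, OsChia4a is the one member with called rises, all in the bottom part, and the bars of Chib3H-a and Chib3H-h all reach over 1.5 log2 units to each side.

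OsChia1d, a class I chitinase by its name, was the member with the largest change. In the unpollinated bottom part its values were 131.8, 84.7 and 128.1, and 1 day after pollination they were 0.911, 1.25 and 1.08. No array of one stage came near the other, and the log2 change was -6.55 ± 0.625 (adjusted p = 2.31e-07). The values went on to 0.495, 0.371 and 0.163 at 2 DAP, then 0.180, 0.205 and 0.165 at 3 DAP, and 0.171, 0.207 and 0.226 at 4 DAP. Against the unpollinated stage these are log2 changes of -7.97, -8.49 and -8.41, each ± 0.625. The further step from 1 to 2 DAP, -1.42 ± 0.625, was not called (adjusted p = 0.577), although the arrays of the 2 days did not overlap. On the deposited scale the group mean was 114.8 before pollination, 1.08 at 1 DAP and 0.343 at 2 DAP.

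The unpollinated top part held less OsChia1d, with values of 8.24, 7.29 and 0.365. Replicate 3 was far below the other two, and all 3 lay below every unpollinated bottom array. The difference between the parts, top minus bottom, was -5.17 ± 0.625 (adjusted p = 5.41e-06), and -3.84 without top replicate 3. Over all probe sets 15.0% differed between the parts before pollination. At 1, 2, 3 and 4 DAP the top arrays ran from 0.102 to 0.254, all below the lowest unpollinated top array. The changes of -3.48, -3.66, -3.26 and -3.51 were each called in the fit to all arrays, but their size rested on the unpollinated arrays. At 1 DAP it was -4.81 without replicate 3, -2.77 without replicate 1 and -2.86 without replicate 2, and the other days moved alike. In fits restricted to the 2 groups compared the calls at 1, 2 and 3 DAP were lost (adjusted p = 0.101, 0.0838 and 0.0847).

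In order of level, OsChia1d stood highest in the unpollinated bottom part, then the unpollinated top part, then the bottom part at 1 DAP. The first of these did not overlap the next, the unpollinated top arrays enclosed those of the bottom part at 1 DAP, the bottom arrays of 1 and 2 DAP did not overlap, and from the bottom part at 2 DAP downwards each group overlapped its neighbour. The highest group mean was 114.8 ± 26.2 (SD, n = 3), and the lowest, 0.118 ± 0.0225 (SD, n = 2) in the top part at 2 DAP, lay below the pseudocount, so no fold is given between them.

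Cht1, which RefSeq also lists as Cht9, lies next to OsChia1d on chromosome 5 with 0 genes between them in the RefSeq assembly. The name is shared: OsChia1a, described further on, carries Cht1 as a synonym. Its values in the unpollinated bottom part were 1.53, 0.619 and 1.08, and at 1 DAP they were 0.327, 0.218 and 0.333, with no overlap. The log2 changes were -1.45 ± 0.298 at 1 DAP (adjusted p = 0.00192), -1.76 at 2 DAP, -1.75 at 3 DAP and -2.21 at 4 DAP (adjusted p = 1.45e-05). Every later bottom array, from 0.0733 to 0.333, lay below the lowest unpollinated one.

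Top values of Cht1 were 0.252, 0.226 and 0.224 before pollination, and no later day was called there (adjusted p from 0.397 to 0.864). Top minus bottom before pollination was -1.66 ± 0.298 (adjusted p = 5.66e-04). Only that bottom group stands clear of the rest: the other 9 groups had means from 0.123 to 0.293, and each overlapped the next in order. Over the 27 arrays the log2 values of Cht1 and OsChia1d correlated with r = 0.831, a description of probe sets on the same arrays in which the unpollinated bottom arrays are high for both.

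**Figure D2:**
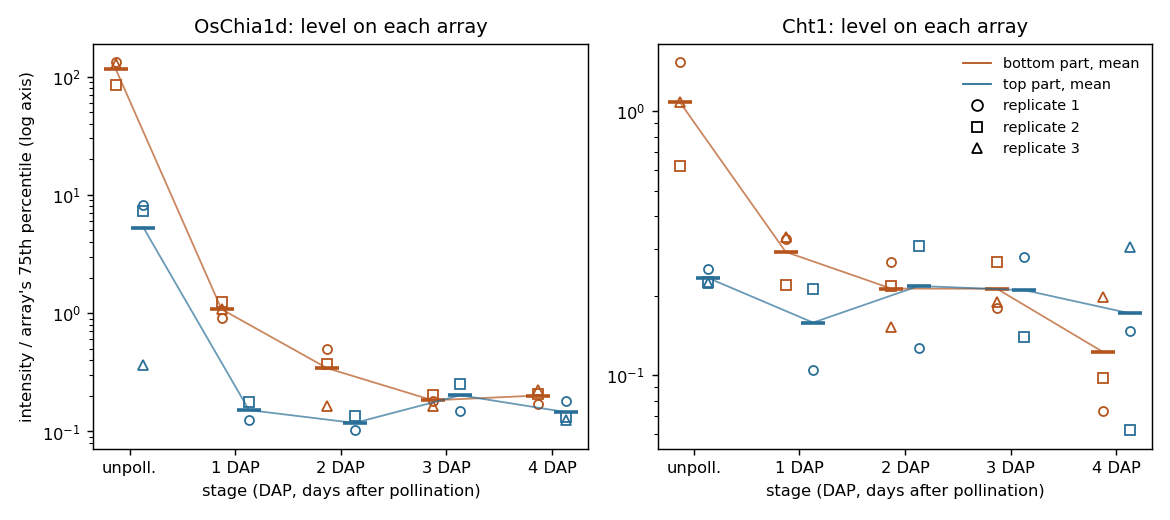
Level of OsChia1d (left) and Cht1 (right) on each array (y axis, intensity relative to the array's 75th percentile, log axis; the y axes of the panels differ) by stage (x axis); symbols are replicate numbers, dashes and lines the group means. The unpollinated bottom arrays, 84.7 to 131.8 for OsChia1d and 0.619 to 1.53 for Cht1, lie above all other arrays of the same gene.

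The summed level of markers of the floral organs around the ovary also fell in the bottom part after pollination. The summed level of OsMADS2, OsMADS4 and OsMADS16, MADS-box factors of lodicules and stamens, was 110.6, 45.5 and 68.1 on the 3 unpollinated bottom arrays. Bottom sums were 28.4 to 33.1 on day 1 and 9.65 to 15.4 on day 4. Top sums were 14.9 to 20.6 before pollination and 5.79 to 6.75 on day 1. On that day OsChia1d was called lower in the top part in the fit to all arrays (-3.48, adjusted p = 0.00158). Cht1 was not called there (-0.36, adjusted p = 0.515). Its unpollinated top values, 0.224 to 0.252, were already close to the pseudocount of 0.13, so a fall of Cht1 would be understated there. At 1 DAP in the bottom part 2 of the 3 markers were called lower, OsMADS2 at -1.33 ± 0.301 and OsMADS16 at -1.14 ± 0.291, and OsMADS4 was not, at -0.41 ± 0.302. The array with the lowest marker sum, replicate 2, was also the lowest of the 3 for OsChia1d and Cht1. The part of these organs in the fall of both genes was not tested.

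Whether the fall differed between the parts was asked with the difference of the changes, top minus bottom. For OsChia1d it was 3.07 ± 0.937 at 1 DAP, not called (adjusted p = 0.177), and 4.31 ± 0.937 at 2 DAP (0.0173), 5.24 ± 0.937 at 3 DAP (0.00236) and 4.90 ± 0.883 at 4 DAP (0.00228), all called. All top arrays after pollination (0.102 to 0.254) and all bottom arrays of 3 and 4 DAP (0.165 to 0.226) were close to the pseudocount of 0.13. A further fall cannot be seen there. The differences at 3 and 4 DAP therefore largely restate the difference between the parts before pollination, -5.17. At 2 DAP the bottom arrays were higher, 0.163 to 0.495, and top minus bottom was -0.87 ± 0.698, not called (adjusted p = 0.759). For Cht1 the difference of the changes was called at 3 DAP (1.63 ± 0.447, adjusted p = 0.0430) and 4 DAP (1.86 ± 0.421, 0.0141). It was not called at 1 DAP (1.09, 0.493) or 2 DAP (1.64, 0.0743). The unpollinated top mean of Cht1, 0.234, was already below the filter value of 0.264, and no top fall was called to compare with. Over all probe sets 1.05%, 1.52%, 4.02% and 3.69% were called at 1, 2, 3 and 4 DAP. Without unpollinated top replicate 3 the OsChia1d differences were 1.74, 2.97, 3.91 and 3.57, each called, and the Cht1 call at 3 DAP was lost under 15 alternatives (adjusted p up to 0.312).

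Cht11, a chitinase gene on chromosome 3 with 3 genes between it and CEBIP, the rice receptor for chitin fragments, was brightest in the unpollinated top part. Its values there were 2.36, 3.77 and 3.01. Day 1 gave 1.56 and 0.710, day 2 gave 0.704 and 0.414, day 3 gave 0.240 and 0.684, and day 4 gave 0.284, 0.293 and 0.385. No pollinated array of the top part reached the lowest unpollinated one. The log2 change at 1 DAP, -1.39 ± 0.518, was not called (adjusted p = 0.0705), while those of -2.22 at 2 DAP, -2.51 at 3 DAP (each ± 0.518) and -2.80 ± 0.464 at 4 DAP were (adjusted p = 0.00517, 0.00122 and 8.68e-05). The call at 2 DAP was lost without top replicate 2 of that day (0.0771) and the one at 3 DAP without top replicate 1 (0.0601).

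Markers moved in the top part over the same days. DL, a carpel identity gene, had values of 5.48 to 7.23 before pollination and 1.25 to 1.49 at 4 DAP, and was the 1 of 3 carpel markers called lower then (-2.07 ± 0.288, adjusted p = 1.19e-05); the sum of DL, OsMADS3 and OsMADS58 was 47.9 to 59.8 and 42.8 to 47.3. The lodicule and stamen sum was 14.9 to 20.6 and 4.68 to 5.63, and the endosperm sum 0.527 to 1.09 and 37.7 to 84.5. The part of tissue makeup in the fall of Cht11 was not tested.

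In the bottom part Cht11 had values of 1.40, 2.07 and 1.19 before pollination and 2.48, 2.02 and 2.57 at 1 DAP, a log2 change of 0.59 ± 0.464 that was not called (adjusted p = 0.479). At 2 DAP the values were 1.76, 1.56 and 0.654, at 3 DAP 0.692, 0.666 and 0.200, and at 4 DAP 1.89, 1.42 and 0.357. On each of these days replicate 3 was the lowest. The fall at 3 DAP, -1.45 ± 0.464, was the called one (adjusted p = 0.0364), and it was lost under 5 alternatives, with a value of -1.02 without replicate 3 of 3 DAP (0.180). At 4 DAP the top part was below the bottom part by a log2 change of -1.36 ± 0.464 (adjusted p = 0.137), and the change since the unpollinated stage differed between the parts by -2.29 ± 0.656 (0.0551), neither called. Without bottom replicate 3 of 2, 3 and 4 DAP both were, at -1.98 (0.00147) and -2.91 (5.33e-04).

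OsChia4a, a class IV chitinase by its name and also known as Cht5, rose for a short time in the bottom part. Before pollination its values were 0.120, 0.223 and 0.221, and at 1 DAP they were 1.19, 1.15 and 1.28, with no overlap. The log2 change was 2.09 ± 0.201 (adjusted p = 2.60e-07). At 2 DAP the values were 0.677, 0.357 and 0.334, below all arrays of 1 DAP, and the step of -1.23 ± 0.201 from 1 to 2 DAP was called (adjusted p = 0.00187).

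It was the 1 called step from a day to the next among 36 member comparisons. Over all probe sets 0.969%, 0.0683% and 0.0102% were called in the bottom part from 1 to 2, 2 to 3 and 3 to 4 DAP, and 0.918%, 2.2% and 0.181% in the top part. In a fit of those 2 groups alone the step lost its call (adjusted p = 0.0920). Against the unpollinated stage OsChia4a was still called higher at 2 DAP (0.85 ± 0.201, adjusted p = 0.00576) and at 4 DAP (0.73 ± 0.201, 0.0120), with values of 0.341, 0.296 and 0.578 on the latter day. At 3 DAP the change of 0.37 ± 0.201 was not called (0.231). The call at 2 DAP was lost with only the arrays compared (0.078) and without replicate 1 of that day (0.60, 0.0551). The one at 4 DAP was lost with only the arrays compared (0.0967) and without unpollinated replicate 1 (0.57, 0.0766). It was also lost in every setting without replicate 3 of that day (0.51 to 0.59, adjusted p from 0.0659 to 0.0806).

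All top arrays of OsChia4a lay between 0.0969 and 0.201, and no day was called there (log2 changes from 0.05 to 0.28). The top part was therefore below the bottom part at 1 DAP, by a log2 difference of -2.20 ± 0.224 (adjusted p = 2.22e-06). The changes at 1 DAP differed between the parts by -1.98 ± 0.301 (adjusted p = 0.00118). At 4 DAP the parts differed by -0.91 ± 0.201 (0.0170), a call lost under 6 alternatives: with only the arrays compared (0.134), without top replicate 1 (-0.81, 0.0782) or 2 (-0.93, 0.0565) of that day, and in all 3 settings that leave out bottom replicate 3 of that day (-0.68 in each, adjusted p from 0.0720 to 0.101). Over all probe sets 4.06% differed between the parts at 1 DAP, 1.49% at 2 DAP, 5.38% at 3 DAP and 2.57% at 4 DAP. Among the 6 members 4 of 30 such differences were called, the other two being OsChia1d and Cht1 before pollination.

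**Figure D3:**
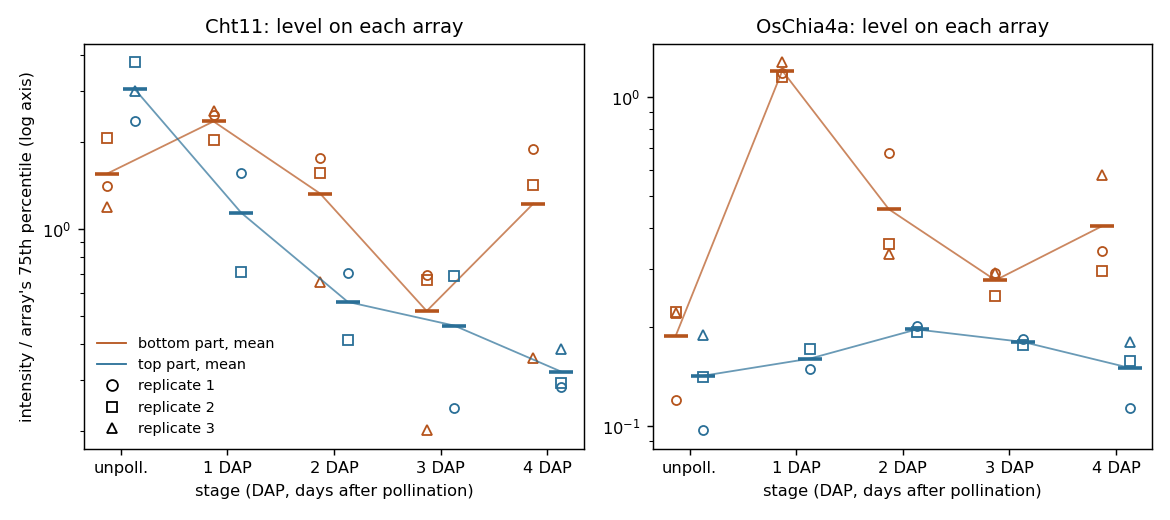
Level of Cht11 (left) and OsChia4a (right) on each array (y axis, intensity relative to the array's 75th percentile, log axis; the y axes of the panels differ) by stage (x axis); symbols are replicate numbers, dashes and lines the group means. Cht11 goes down in the top part from 2.36 to 3.77 to 0.284 to 0.385, and OsChia4a peaks in the bottom part at 1 DAP (1.15 to 1.28) with top arrays no higher than 0.201.

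Chib3H-a and Chib3H-h belong to the class III chitinases by name and lie on chromosome 11 with 4 genes between them in the RefSeq assembly. Chib3H-a is also listed as RIXI, a rice protein known as an inhibitor of xylanases, enzymes with which fungi digest plant cell walls. Neither gene was called in any of the 23 comparisons, nor under any alternative that was run. Their replicates, in contrast, lay far apart.

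For Chib3H-a the bottom values were 0.514, 1.24 and 27.5 before pollination, 2.02, 0.940 and 0.442 at 1 DAP, and 2.75, 0.148 and 13.5 at 2 DAP. They were 1.296, 6.62 and 79.9 at 3 DAP and 0.541, 0.196 and 24.3 at 4 DAP. Replicate 3 was the highest at every stage except 1 DAP, where it was the lowest. Chib3H-h had bottom values of 1.303, 1.62 and 23.6 before pollination, 9.95, 2.78 and 1.16 at 1 DAP, and 7.08, 0.359 and 20.6 at 2 DAP. At 3 DAP it had 5.69, 10.7 and 83.7 and at 4 DAP 1.12, 1.00 and 44.7. The same arrays were high for both genes, and in each of the 10 groups, top groups included, both had their highest value on the same array.

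In the top part the arrays ran from 0.117 to 3.48 for Chib3H-a and from 0.172 to 7.58 for Chib3H-h. Before pollination replicate 1 was the high one, with 3.48 against 0.126 and 0.296 for Chib3H-a and 7.58 against 0.172 and 0.865 for Chib3H-h. The ratio of the highest to the lowest array of a group reached 124 for Chib3H-a, in the bottom part at 4 DAP, and 57.3 for Chib3H-h, in the bottom part at 2 DAP. The residual spread within groups was 2.27 log2 units (SD) for Chib3H-a and 2.11 for Chib3H-h, against a median of 0.263 over all probe sets tested, of which 6 and 11 had a larger spread. With this spread the largest change of either gene since the unpollinated stage, 2.16 ± 1.56 for Chib3H-h in the bottom part at 3 DAP, was not called (adjusted p = 0.398, 95% interval -1.10 to 5.41), so differences of several log2 units cannot be seen here.

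The group mean of both genes was highest in the bottom part at 3 DAP (29.3 ± 43.9 and 33.4 ± 43.7, SD, n = 3), with an SD larger than the mean. The mean of replicates 1 and 2 alone was also highest there among the bottom groups, but far lower. With replicate 3 left out of all 5 bottom groups, an alternative chosen after these values were seen, the changes in the bottom part ran from -1.01 to 1.73 for Chib3H-a and from -0.41 to 2.33 for Chib3H-h, and none was called. These arrays differed in the green tissue and endosperm sums on some days and not on others. At 3 DAP replicate 3 had a green tissue sum (CAB2R and LHCP) of 18.4 against 87.5 and 84.1 on the other two, and an endosperm sum of 1.18 against 10.4 and 3.01. At 4 DAP its green tissue sum was 68.5 against 102.9 and 94.9, but its endosperm sum was the highest, 23.2 against 19.1 and 16.2. At 2 DAP the pair was also high on replicate 3. Its green tissue sum, 38.8 (36.3 and 40.7), and endosperm sum, 1.62 (1.93 and 0.864), lay between those of the other two. Before pollination the green tissue sum was 19.4 against 16.1 and 19.7. The part of tissue makeup in the spread of the pair was not tested. Cht11, described above, was low on the same bottom arrays at 2, 3 and 4 DAP, and over all 27 arrays it correlated with Chib3H-h with r = -0.451 and with Chib3H-a with r = -0.268.

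**Figure D4:**
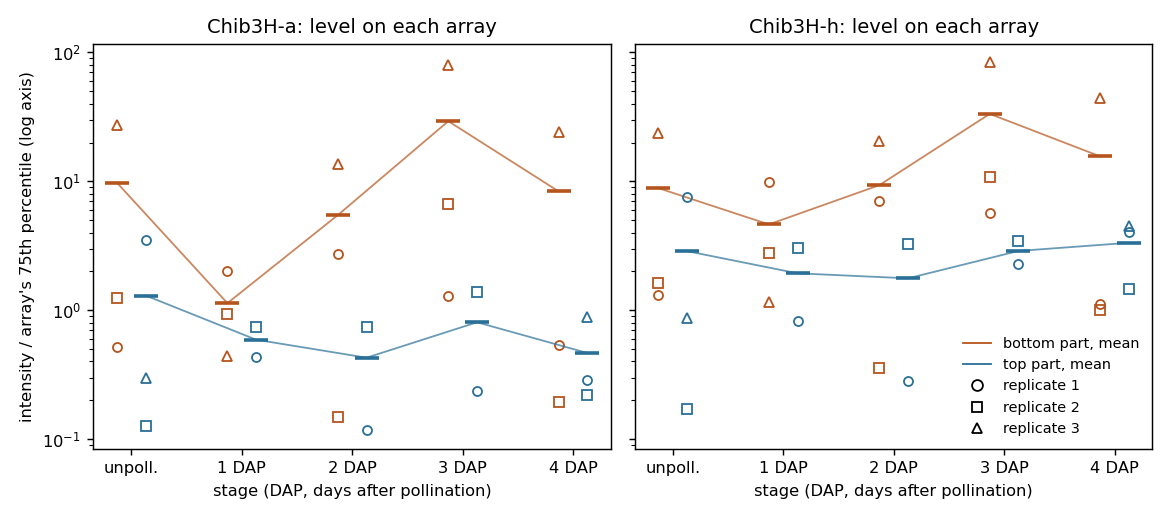
Level of Chib3H-a (left) and Chib3H-h (right) on each array (y axis, intensity relative to the array's 75th percentile, log axis) by stage (x axis); symbols are replicate numbers, dashes and lines the group means. Bottom replicate 3 (triangles) is the highest bottom array of both genes before pollination and at 2, 3 and 4 DAP, reaching 79.9 and 83.7 at 3 DAP, and the lowest at 1 DAP.

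Among 2125 named genes of 15273 tested, those whose log2 values followed each member most closely over the 27 arrays were picked by Pearson's r, as a description of arrays that share scaling and stages. For OsChia1d they were the beta-expansin OsEXPB9 (r = 0.956), the metal-chelate transporter osysl7 (0.946) and the sugar carrier OsSWEET5 (0.932). OsEXPB9 went from a mean of 8.90 to 0.395 in the bottom part in 1 day, and from 1.42 to 0.248 in the top part. For Cht1 they were OsSPX5 (0.866), of a family of phosphate-sensing proteins, the phosphate exporter family member OsPHO1;3 (0.859) and the expansin OsEXP29 (0.848). The bottom means of OsPHO1;3 were 3.80 before pollination and 0.399 a day later, and its unpollinated top mean was 0.198.

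The genes most like Cht11 were the Aux/IAA auxin repressor IAA3 (r = 0.836), the Argonaute gene OsAGO1d (0.828) and the zinc finger gene OsC3H24 (0.817). OsAGO1d had top means of 14.2 before pollination and 3.38 at 1 DAP. OsChia4a was followed by OsOPR5 (0.901), of the oxophytodienoate reductase family that includes a jasmonate synthesis enzyme, the Aux/IAA gene IAA20 (0.890) and the MYB factor OsMPH1 (0.883). OsOPR5 had bottom means of 0.480, 7.001, 2.27, 1.32 and 0.673 from the unpollinated stage to 4 DAP, and top means between 0.198 and 0.293. Chib3H-a was followed by the calcium-dependent protein kinase OsCDPK12 (0.937), by Chib3H-h (0.929) and by SAUR39 (0.919), known to hold down auxin synthesis in rice. Chib3H-h was followed by the protein phosphatase OsPP2C45 (0.972), SAUR39 (0.936) and Chib3H-a.

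Other chitinase genes rose while OsChia1d fell. A search of names and synonyms gave 8 other chitinase genes, of which 6 had a probe set and 4 were tested (OsChia1a, OsChia1c, OsChia2a and Cht6); Cht10 and OsChia2b, with means over all arrays of 0.248 and 0.130, were too dim. At 1 DAP 3 of the 4 were called higher and 0 lower in each part, where 13.4% of all probe sets were called in either direction in the bottom part and 17.3% in the top part. OsChia1a, a class I gene, had bottom values of 0.409, 0.942 and 1.54 before pollination and 32.9, 32.3 and 38.1 at 1 DAP, a log2 change of 5.12 ± 0.743 (adjusted p = 4.60e-05). Its top values were 0.455, 0.0813 and 1.00 before pollination and 8.30 and 6.85 at 1 DAP, a change of 3.89 ± 0.831 (0.00268). No array of one stage overlapped the other in either part.

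OsChia1c, the neighbour of OsChia1a on chromosome 6 with 0 genes between, changed by 3.72 ± 0.685 in the bottom part and 3.88 ± 0.765 in the top part. Its probe sets are of the kind that can bind related transcripts, so the signal of OsChia1a and OsChia1c may be shared. OsChia2a, a class II gene, changed by 3.04 ± 0.530 and 2.48 ± 0.592, and its top call was lost without top replicate 1 of 1 DAP (2.23, adjusted p = 0.0903). Cht6 was not called (1.11 ± 0.942 and 2.69 ± 1.05). On later days fewer passed: in the bottom part 2 of 4 were called at 2 DAP (OsChia1a at 3.27 and OsChia2a at 2.23), 1 on day 3 (OsChia2a at 1.59) and 0 on day 4, while the top part had 0 on all 3 later days. Over all probe sets 14.3%, 16.0% and 20.4% were called in the bottom part at 2, 3 and 4 DAP. The top part had 18.5%, 25.2% and 34.6%. With 4 genes, a count of 0 or 1 cannot be told from these shares. OsChia2a was close to the threshold on both last days: its call at 3 DAP (adjusted p = 0.0450) was lost under 9 alternatives (up to 0.176), and at 4 DAP the change of 1.47 missed it (0.0543). A dimmer probe set of OsChia2a was called at 4 DAP (1.304, 0.0428) and not at 3 DAP (1.19, 0.0752). Its dimmest, with a mean over all arrays of 0.114, did not pass the filter. The median log2 change of the 4 genes in the bottom part was 3.38, 2.05, 1.504 and 0.75 at 1, 2, 3 and 4 DAP. OsChia1a had bottom means of 9.52, 4.97 and 2.45 on the later days, but 0 of the 4 genes were called in any step from a day to the next. Single unpollinated arrays moved some sizes at 1 DAP: without bottom replicate 1 OsChia1c changed by 2.93 there, and without top replicate 2 OsChia1a and OsChia1c changed by 3.24 and 3.28 in the top part.

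**Figure D5:**
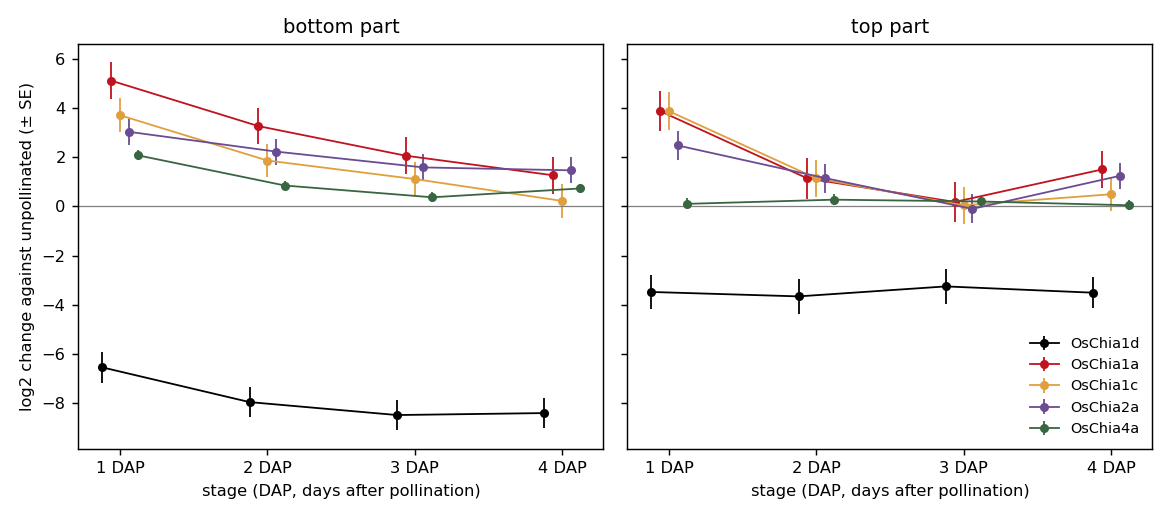
Log2 change since the unpollinated stage (y axis, ± SE of the limma fit) by day after pollination (x axis) in the bottom part (left) and the top part (right), for the members OsChia1d and OsChia4a and for 3 other chitinase genes. OsChia1a, OsChia1c, OsChia2a and OsChia4a stand highest at 1 DAP in the bottom part (5.12, 3.72, 3.04 and 2.09), where OsChia1d is at -6.55; in the top part OsChia4a stays within 0.28 of 0.

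Chitin receptors were also counted. Of 4 chitin perception genes (CEBIP, OsCERK1, LYP4 and RLK10) 1 was called higher in the bottom part at 1 and at 2 DAP, LYP4, a receptor of chitin and peptidoglycan fragments, where 13.4% and 14.3% of all probe sets were called. It had values of 0.939, 0.917 and 0.443 before pollination and 2.14, 3.15 and 3.25 at 1 DAP, a change of 1.77 ± 0.552 (adjusted p = 0.0370) that lost its call without any 1 of those 6 arrays (adjusted p from 0.0546 to 0.163). The change at 2 DAP, 1.91, lost its call without 3 of the single arrays (up to 0.118). In the top part 1 of 4, RLK10, was lower at 3 DAP (-0.58, adjusted p = 0.0403) and 0 were called on the other days, by the brightest probe set of each gene. Over all probe sets 25.2% were called there at 3 DAP, and 17.3%, 18.5% and 34.6% at 1, 2 and 4 DAP. That RLK10 call was lost under 8 alternatives (up to 0.283). The dimmer probe set of RLK10 was called lower on all 4 days in the top part (-0.98, -0.75, -1.23 and -1.04) and at 2, 3 and 4 DAP in the bottom part (-0.55, -0.68 and -0.69), so its probe sets disagree. The medians of the 4 genes lay between -0.01 and 0.54.

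Of the other pathogenesis-related genes found by name 2 were tested. PBZ1, a probenazole-inducible protein, was higher on all days in both parts, with bottom values of 0.282, 0.232 and 0.278 before pollination and 92.5, 89.9 and 91.7 at 1 DAP (log2 change 7.86 ± 0.430), and 95.3, 66.6 and 58.6 at 4 DAP (7.52 ± 0.430). The top changes were 7.63 ± 0.480 at 1 DAP and 6.999 ± 0.430 at 4 DAP. RBBI3.3, a Bowman-Birk type proteinase inhibitor, was lower at 4 DAP in the bottom part (-1.97 ± 0.591, adjusted p = 0.0209) and the top part (-1.59 ± 0.591, 0.0421). Both RBBI3.3 calls were lost under several alternatives, with values from -2.08 to -1.56 in the bottom part and -1.73 to -1.06 in the top part.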

How the data were processed

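Total RNA of each ovary part was labelled with biotin and hybridised to an Affymetrix rice array, 1 sample per array, per the labels. GCOS 1.3 produced the deposited intensity values, per the submitters' processing notes. How probes were summarised, background treated or detection called is not given in the labels or notes used. The numbers themselves show that the deposited intensities are linear and divided by each array's 75th percentile. The design had assumed globally scaled signals, so every change is relative to that percentile. The number of arrays limits the precision.

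Of 57194 rice probe sets (187 controls left out) 29301 passed a filter (mean over the median value, 0.264) and were tested as log2(value + 0.13), the pseudocount being the 20th percentile. One limma 3.58.1 fit (R 4.3.3) of 10 group means, eBayes with trend, had 17 residual and 3.68 prior degrees of freedom, and groups of 2 arrays borrow the spread of the others. Tests are two-sided. Compared were all days with the unpollinated stage, day to day steps, top against bottom, and the difference of the changes. On simulated data the fit was checked for recovery of known changes. Tables and plots used Python 3.11.15, numpy 2.4.6, pandas 2.3.3 and matplotlib 3.10.9.

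Genes were named from a probe table and RefSeq (assembly ASM3414082v1), which served for names, chromosomes and the order of neighbouring genes; the build of the array is not given, so no coordinates are printed. Of the rice probe sets 22436 had 1 gene, 95 several and 34663 none. The members and lists were chosen with earlier results of these data known. All members were named in all comparisons, with the 3 named genes most like each (a name being a symbol or a synonym that is no clone number) and, of each other list, the 2 called genes with the largest change at 1 and 4 DAP; genes making up counts of 5 or fewer were added after their values were seen. Where a list gene has several probe sets the brightest stands for it. Lists came from patterns on symbols and synonyms: 13 Tubby-like genes were taken out of 15 pathogenesis-related hits, and all 4 hits for beta-1,3-glucanases were glutamine synthetases, so that list was empty. The marker names found were 3 of 6 for endosperm, 2 of 3 for embryo and 3 of 5 for anther and pollen. Ovule marker sums, not used beside a result, were 15.5 to 41.4. Same-numbered top and bottom arrays of a stage deviated with r from -0.634 to 0.315, and 3 of 12 pairs were over 0.1. A pairing of the parts within a stage by replicate number was therefore not borne out. Over all 111 same-numbered pairs r reached 0.748 and 52 were over 0.1, so part of the arrays with the same number deviated alike. In the bottom part the 18S signal was 0.218 to 0.607 on all replicate 1 arrays and 0.711 to 42.7 on the others. What the numbers stand for is not stated, and the main fit has no replicate block.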

Additional observations from a re-analysis of the deposited data

Results flagged for a closer look

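6 results stood out because the change since the unpollinated stage differed between the parts in the limma fit. For OsChia1d the differences (top change minus bottom change) were 4.31 at 2 DAP, 5.24 at 3 DAP and 4.90 at 4 DAP. With both parts near the pseudocount at 3 and 4 DAP, the differences of those days largely restate the one before pollination. At 2 DAP the bottom arrays still reached 0.495. For Cht1 the differences were 1.63 at 3 DAP and 1.86 at 4 DAP, with no fall called in the top part, where it was dim from the start. OsChia4a rose in the bottom part, with a difference of -1.98 at 1 DAP. No other member passed. The groups have 2 or 3 arrays, too few for a test of single outlying arrays, so the high replicates of Chib3H-a and Chib3H-h are given as values in the results.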

How the results depend on the processing

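The pseudocount, filter, scaling, trend, arrays in the fit, 18S signal and single arrays were each varied, and no called result of the members in any comparison, or of the lists since the unpollinated stage, changed direction (816 alternatives kept the call, 87 lost it). Of 30 called member results 14 lost the call under at least 1 alternative, all named with values in the results or here: with only the arrays compared the calls among members numbered 0 instead of 1 for day to day steps and 2 instead of 6 for the differences between the parts' changes, and without bottom replicate 3 of 2, 3 and 4 DAP 7 instead of 4 for top against bottom. The falls of OsChia1d and Cht1 and the rise of OsChia4a at 1 DAP in the bottom part kept their calls throughout. OsChia1d at 2 DAP lost its difference between the parts under 7 alternatives (adjusted p from 0.0527 to 0.241), and at 3 DAP with only the arrays compared (0.0996); Cht1 at 4 DAP lost it with only the arrays compared (0.0646) and without top replicate 3 (0.0510). A replicate block was also tried, although top and bottom arrays of a stage do not bear it out as a pairing. With it 12 bottom and 8 top changes, 1 step, 4 top against bottom differences and 7 differences of changes were called. Among members it changed only Cht11, called in the top part at 1 DAP (-1.60, adjusted p = 0.0218) and in the difference of changes at 4 DAP (-2.29, 0.0276). Among the lists it changed RLK10, not called in the top part at 3 DAP (-0.53, 0.0527). Scaling to the array median moved the median of all probe sets by up to 0.19 log2 units (top minus bottom, 4 DAP). The cause of the lost calls was not tested. Another probe set for a member could not be tried, as each has 1.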
